A study of Mus musculus with 2 samples.

Results

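Keratin genes encode the intermediate filament proteins of epithelial cells. The genes described here are those whose symbol is Krt followed by digits alone, 47 of the 22072 gene symbols in the deposited tables. Of these, 10 reached 1 FPKM in at least 1 of the 2 libraries, and 37 lay under 1 FPKM in both. Of all 22072 symbols, 12383 reached 1 FPKM in at least 1 library with every row of status OK. FPKM is a number of fragments scaled to the length of the transcript and to the mapped fragments of the library, so levels of different genes can be compared on it per length. Tongues of mouse embryos at embryonic day 12, of mixed background, were the source of the RNA. The control library had the genotype Osr1f/+, in which 1 of the Osr1 alleles is floxed (conditional) and the other is wild type, and its label names no Wnt1cre. The mutant library had the genotype Osr1f/-; Wnt1cre, with the floxed allele over a null allele. Both groups carry a floxed allele. The Wnt1cre transgene recombines floxed alleles in the neural crest lineage, which gives rise to the tongue mesenchyme and not to its epithelium. By genotype, epithelial cells of the mutant therefore keep the floxed allele and carry the null allele, which the control lacks. Tissue of 3 pairs of control and mutant tongues was pooled for extraction, per the series' design text, and each genotype has 1 library. Every ratio below compares 2 libraries, has no replicate check and carries no test of genotype.

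Keratins work as pairs of a type I (acidic) and a type II (basic) chain that polymerise together. Simple epithelia and the embryonic surface layer use KRT8 with KRT18 or KRT19, the basal layer of stratified epithelia uses KRT5 with KRT14 or KRT15, and other pairs are made as cells leave the basal layer, in injured or rapidly growing epithelium, and in hair, nail and the papillae of the tongue. The genes were sorted by these roles into 5 simple, 3 basal, 2 activation, 34 late and 3 unclassed members. The late class joins 13 genes of differentiating soft epithelium and 21 genes of hair follicle and hard structures.

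Osr1, the gene targeted in the mutant, was lower in the library labelled mutant, at 56.8 FPKM in the control against 18.4 FPKM in the mutant. From the deposited coverage the libraries held about 18800000 and 23300000 mapped reads, and 3 reads on a transcript of 1.5 kb would equal 0.106 FPKM in the first and 0.0860 FPKM in the second. Intervals are 95% counting intervals from estimated reads. Because the cDNA was amplified, reads are no count of molecules, and the intervals cover counting error alone. Epithelium was present in both libraries: Cdh1, which encodes E-cadherin, had 11.7 FPKM in the control against 10.4 in the mutant, and Epcam, an epithelial adhesion molecule, had 11.4 and 10.6. The summed FPKM of all 47 keratins was 0.409 of the Vim value in the control against 0.371 of it in the mutant. Vim encodes vimentin, the intermediate filament protein of mesenchyme.

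Basal keratins were the most abundant class in both libraries. Their 3 genes summed to 76.0 FPKM in the control against 63.0 FPKM in the mutant, which was 71.4% and 68.0% of all keratin FPKM. Simple keratins summed to 25.0 and 24.8 FPKM, or 23.5% and 26.8%. The 34 late keratins together gave 4.11 and 3.68 FPKM, and the 2 activation keratins 1.17 and 0.991 FPKM. The ratio of mutant to control was 0.830 for the basal sum (0.787 to 0.876) and 0.993 for the simple sum (0.899 to 1.10), so the counting intervals of the 2 classes did not overlap. The basal sum was 3.04 times the simple sum in the control against 2.54 times in the mutant. The second of these divided by the first was 0.836 (0.747 to 0.936). The late sum had a ratio of 0.897 (0.721 to 1.12) and the activation sum 0.850 (0.513 to 1.41), and both intervals include 1.

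**Figure D1:**
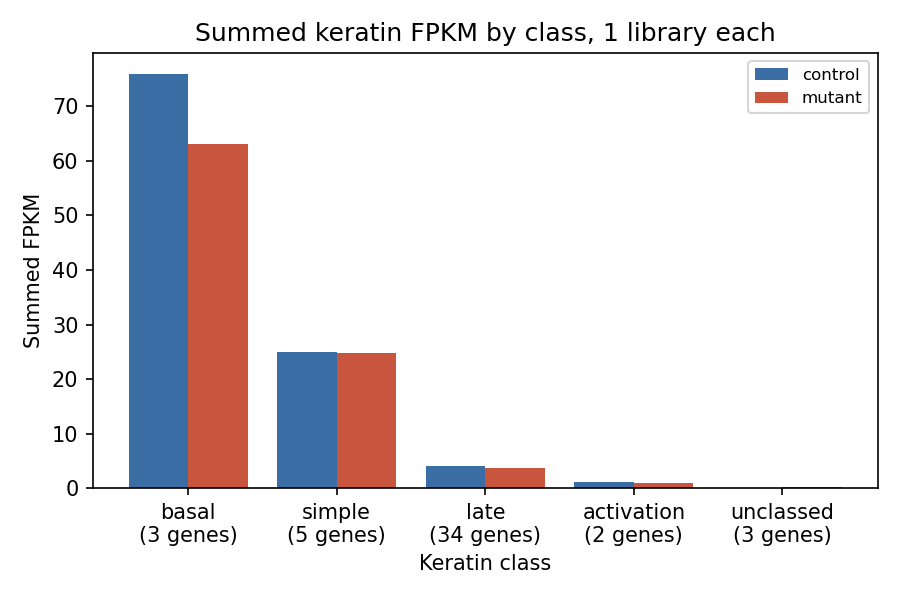
Summed FPKM of the keratin classes (y axis, from 0) in the control (blue) and mutant (red) library, 1 library each. The basal bars stand at 76.0 and 63.0 FPKM and the simple bars at 25.0 and 24.8 FPKM, while the 34 late genes together stay near 4 FPKM.

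Among the basal keratins, Krt15, a type I chain of basal cells and epithelial progenitors, was the most abundant keratin of all. Krt15 (NM_008469, chromosome 11, 99993073 to 99997263, here and below on mm9) had 35.3 FPKM in the control (33.2 to 37.4) and 30.1 FPKM in the mutant (28.4 to 31.8). The control value was the higher, and the intervals did not overlap. The ratio was 0.853 (0.786 to 0.926), from about 1139 and 1203 reads in libraries of unequal depth. Krt5, the type II chain of the basal pair (NM_027011, chromosome 15, 101537501 to 101543322), had 29.7 FPKM in the control (28.0 to 31.4) and 23.6 FPKM in the mutant (22.3 to 25.0). Its ratio of 0.796 (0.734 to 0.863) was the lowest of the 8 keratins that reached 1 FPKM in both libraries. Krt14, the main type I partner of Krt5 in later epidermis (NM_016958, chromosome 11, 100064476 to 100068824), had 11.03 FPKM in the control (9.90 to 12.3) and 9.35 in the mutant (8.41 to 10.4). Its level intervals overlapped, while the interval of its ratio, 0.848 (0.729 to 0.986), lay just below 1.

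Among the 3 basal genes, proportions differed between the libraries by less than counting error. The level of Krt15 was 3.20 times that of Krt14 in the control against 3.22 times in the mutant. Krt5 stood at 2.69 times Krt14 in the control against 2.53 times in the mutant, and this quotient changed by a factor of 0.939 (0.791 to 1.11) between the libraries. Set against both type I partners together, Krt5 stood at 0.641 in the control against 0.599 in the mutant, a factor of 0.934 (0.838 to 1.04). Each of these intervals includes 1, which does not show that the proportions were equal.

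The simple keratins were split around a ratio of 1. Krt8, the type II chain of simple epithelium (NM_031170, chromosome 15, 101827142 to 101834773), had 7.12 FPKM in the control (6.24 to 8.06) and 8.06 FPKM in the mutant (7.22 to 8.96), a ratio of 1.13 (0.958 to 1.34). It was the keratin of at least 1 FPKM with the higher value in the mutant library. Krt18, its type I partner (NM_010664, chromosome 15, 101858647 to 101862457), had 9.001 FPKM in the control (7.90 to 10.2) and 8.46 in the mutant (7.48 to 9.51), a ratio of 0.940 (0.785 to 1.12). Krt19, the type I keratin of simple and ductal epithelium (NM_008471, chromosome 11, 100002126 to 100007233), had 4.87 FPKM in the control against 4.24 in the mutant, a ratio of 0.872 (0.674 to 1.11). Krt7, a type II keratin of ducts and glands (NM_033073, chromosome 15, 101242834 to 101258237), had 3.98 and 3.80 FPKM and thus a ratio of 0.955 (0.739 to 1.22). For all 4 genes the level intervals of the 2 libraries overlapped and the interval of the ratio included 1. The level of Krt8 was 0.791 of the level of Krt18 in the control against 0.953 of it in the mutant, a factor of 1.205 (0.941 to 1.54).

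The ratio of Krt8 stood above those of the 3 basal keratins. Of the 45 pairs among the 10 keratins, 3 had an interval of the quotient of their ratios that excluded 1, and these were Krt8 against Krt5, Krt15 and Krt14. The 3 pairs share Krt8, and no correction was made for the 45 pairs. Such intervals often exclude 1: for single ratios, 10.2% of all measured genes had one below 1 and 10.7% one above. The ratio of Krt5, in reads, was 0.703 of that of Krt8 (0.582 to 0.847), the ratio of Krt15 0.753 of it (0.624 to 0.909) and that of Krt14 0.748 of it (0.596 to 0.940). A pseudogene limits the value of Krt8: in the GENCODE M21 transcripts, 27.9% of all windows of 45 nt along the longest Krt8 transcript were also found in Krt8-ps. Without Krt8 the remaining simple keratins summed to 17.9 FPKM in the control against 16.8 in the mutant, and against the basal sum their change was 1.13 (0.987 to 1.29), an interval that includes 1. The difference between the classes therefore rests in part on Krt8. Of the basal genes, Krt14 shared 17.4% of its windows with Krt16, Krt17 and Krt42, Krt5 shared 8.96% with Krt6a, Krt6b and 2 gene models, and Krt15 shared 1.27%.

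**Figure D2:**
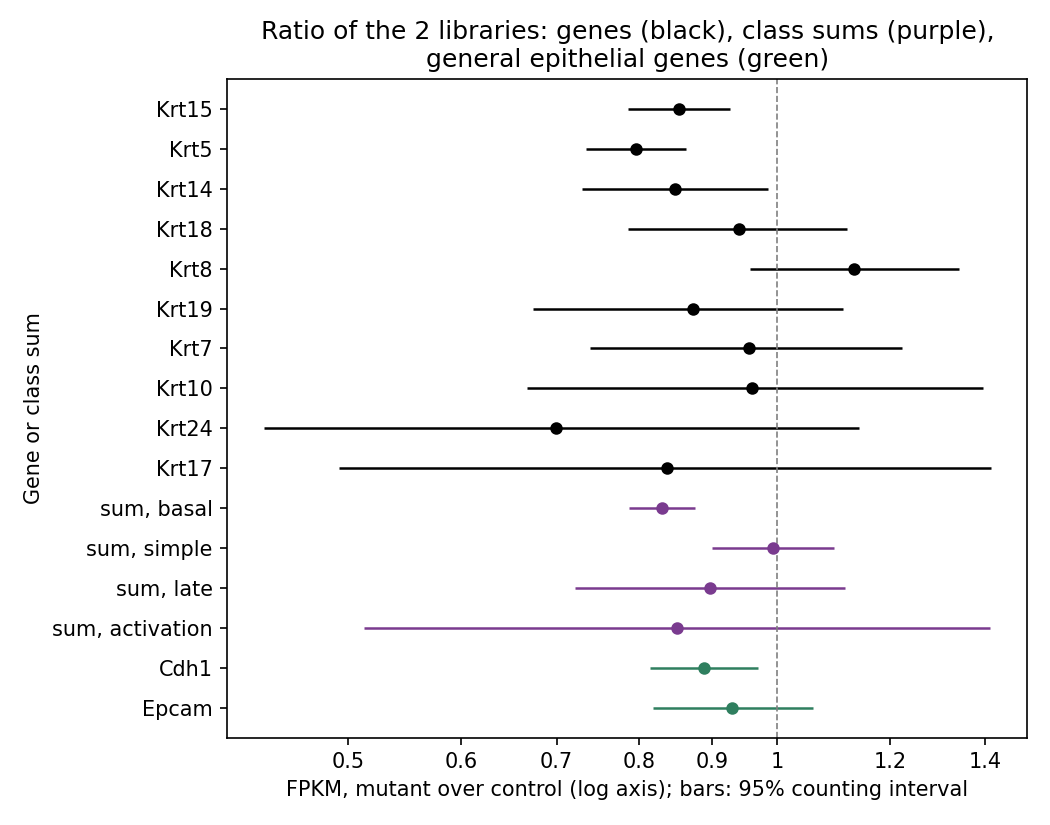
Ratio of FPKM, mutant over control, on a log axis with 95% counting intervals, for the 10 keratins of at least 1 FPKM (black), class sums (purple) and 2 general epithelial genes (green). Krt15, Krt5 and Krt14 have intervals below 1, and Krt8 is the keratin to the right of 1, with an interval of 0.958 to 1.34.

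The basal sum, Krt5 and Krt8 were also set against other epithelial genes of each library. The basal sum was 6.48 times the Cdh1 level in the control against 6.05 times in the mutant, a factor of 0.935 (0.843 to 1.04), and 6.67 and 5.95 times the Epcam level, a factor of 0.893 (0.776 to 1.03). Krt5 alone stood at 2.53 times Cdh1 in the control against 2.27 times in the mutant (factor 0.896, 0.795 to 1.01), and at 2.60 and 2.23 times Epcam (factor 0.856, 0.734 to 0.998). Krt8 stood at 0.607 of Cdh1 in the control against 0.774 of it in the mutant (factor 1.27, 1.05 to 1.54), and at 0.625 and 0.761 of Epcam (factor 1.22, 0.983 to 1.51). Against Trp63, which encodes the basal layer's p63 transcription factor, the basal sum had a factor of 0.857 (0.772 to 0.951) and Krt5 one of 0.822 (0.729 to 0.927). Trp63 has several transcripts, and by estimated reads in place of FPKM these factors were 0.909 (0.819 to 1.01) and 0.875 (0.776 to 0.987). The interval of the basal sum thus included 1 against Cdh1 and Epcam, and against Trp63 it did so by reads and not by FPKM. In whole tongue, fewer epithelial cells and less keratin RNA per cell cannot be told apart.

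The counts of keratins past a call were set beside those of all genes. Of the 10 keratins, 3 had a counting interval of the ratio below 1 (Krt5, Krt14 and Krt15) and 0 had one above 1. Among all 12383 genes of at least 1 FPKM in either library these shares were 10.2% and 10.7%. A counting interval narrows as reads rise, and the shares are not matched for read number. The 3 keratins had about 344 (Krt14), 1139 (Krt15) and 1221 (Krt5) reads in the control. With a ratio of 1/1.2 or less as the call, Krt5 was lower, beside 5.67% of all genes, and 0 keratins were higher by 1.2-fold, beside 7.59%. Krt24 was also past the lower call, but it passed the filter through the control alone and is not counted. The shares of all genes include genes that passed through 1 library alone. Of the 8 keratins with at least 1 FPKM in both libraries, 7 had the lower value in the mutant, beside 49% of the 11982 genes that passed the same filter, and 1 the higher, beside 51%. Their median log2 ratio (of FPKM plus 1) was -0.12, and that of the same 11982 genes was 0.0028. Krt24 and Krt17 reached 1 FPKM in the control alone, so by the filter they could only be lower, and they are not counted among the 8. By level, 2 of the basal keratins ranked high among the expressed genes and the third near the middle: Krt15 exceeded 86.9% of the measured genes in the control against 83.7% in the mutant, Krt5 83.5% and 77.9%, and Krt14 53.4% and 47.7%.

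The order of the levels was the same in both libraries down to Krt10: Krt15, Krt5, Krt14, Krt18, Krt8, Krt19, Krt7, Krt10. In each library the neighbours Krt14 and Krt18, Krt18 and Krt8, and Krt19 and Krt7 had overlapping intervals and were not separated by counting error. Type I chains summed to 64.3 FPKM in the control against 55.9 in the mutant, and type II chains to 41.9 and 36.7. The type II sum was thus 0.652 of the type I sum in the control against 0.657 of it in the mutant, a factor of 1.01 (0.919 to 1.10).

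**Figure D3:**
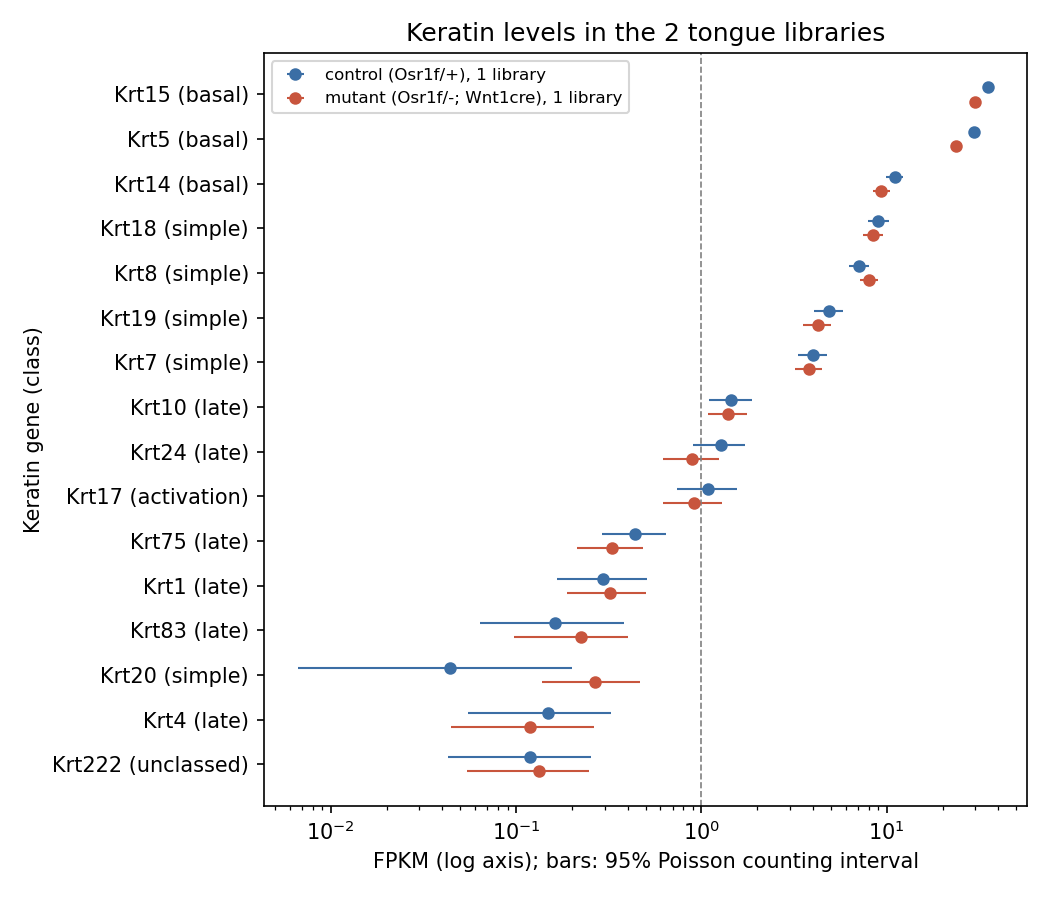
FPKM on a log axis with 95% Poisson counting intervals in the control (blue) and mutant (red) library, for the 10 keratins of at least 1 FPKM and the 6 highest of the rest, each with its class. The dashed line is 1 FPKM, and Krt15 and Krt5 lie far to its right, at 30.1 to 35.3 and 23.6 to 29.7 FPKM.

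Of the 34 late keratins, 32 lay under 1 FPKM in both libraries, and 27 had at most 3 estimated reads in each. Krt10, the type I chain made by suprabasal cells of the epidermis (NM_010660, chromosome 11, 99246569 to 99250678), had 1.44 FPKM in the control (1.10 to 1.88) and 1.39 in the mutant (1.08 to 1.77), from about 57 and 68 reads. Krt1, its type II partner, had 0.296 and 0.323 FPKM, with about 14 and 18 reads. Krt24, a type I keratin (NM_029393, chromosome 11, 99141407 to 99146552), had 1.28 FPKM in the control (0.901 to 1.72) and 0.892 in the mutant (0.621 to 1.24), a ratio of 0.699 (0.436 to 1.14). The intervals of both libraries overlapped for each of these 3 genes. Krt4, the type II chain of the oral and oesophageal lining, had 0.148 and 0.119 FPKM, with about 6 reads in each library, and its type I partner Krt13 was listed at 0 in both. A count of 3 reads would have given Krt13 0.122 FPKM in the control against 0.0982 in the mutant.

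Of the 21 keratins of hair follicle and hard structures, 0 reached 1 FPKM and 10 were listed at 0 in both libraries. Krt75, a type II chain of the follicle's companion layer, was the highest, at 0.438 FPKM in the control (0.290 to 0.640) and 0.327 in the mutant (0.213 to 0.486), and its mm9 locus overlaps that of Krt85. Krt83, a type II hair keratin, had 0.161 and 0.223 FPKM, and 26.7% of its windows of 45 nt are shared with Krt86, Krt81 and Krt87. The other 19 were at most 0.0858 FPKM in the control against 0.0679 in the mutant. Krt36 and Krt84, keratins of the filiform papillae of the mature tongue, had 0.0858 and 0.0679 FPKM (Krt36) and 0 in both libraries (Krt84).

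Activation keratins were low as well. Krt17, a type I chain of periderm, placodes and wounded epithelium (NM_010663, chromosome 11, 100117531 to 100122303), had 1.08 FPKM in the control (0.742 to 1.55) and 0.907 in the mutant (0.623 to 1.29). Krt16, its neighbour in the genome and in role, had 0.0828 and 0.0842 FPKM, from about 2 and 3 reads, and 40.6% of its windows are shared with other transcripts. Krt6a, a type II partner of both, is outside the rule on symbols because of its letter. It had 0.697 FPKM in the control against 0.825 in the mutant, a ratio of 1.18 (0.710 to 1.91), and Krt6b was listed at 0 in both.

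Of all 47 keratins, 16 were listed at 0 in both libraries, and 30 had at most 3 estimated reads in each. For the 16, a count of 3 reads would have been 0.0614 to 0.122 FPKM in the control against 0.0496 to 0.0982 FPKM in the mutant, depending on length, so higher levels than that were not detected. By class, under 1 FPKM in both libraries were 1 of 5 simple, 0 of 3 basal, 1 of 2 activation, 32 of 34 late and 3 of 3 unclassed keratins. The unclassed Krt222 was the highest of its class, at 0.119 and 0.134 FPKM. The 37 low genes together held 1.54% of keratin FPKM in the control against 2.07% in the mutant.

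Krt20 was the simple keratin under 1 FPKM in both libraries. It marks intestinal and urothelial surface cells and Merkel cells, the touch receptors of skin and oral lining. Krt20 had 0.0438 FPKM in the control (0.00668 to 0.199) and 0.268 FPKM in the mutant (0.138 to 0.467), from about 2 and 12 reads. The mutant value was the higher, with overlapping level intervals and a ratio of 6.11 (1.08 to 44.6) that rests on few reads. Of the other 4 Merkel cell markers, Atoh1, which defines these cells, was listed at 0 in the control, with about 1 read in the mutant, and the 4 summed to 16.8 FPKM in the control against 17.2 in the mutant, nearly all from Sox2, Isl1 and Piezo2, which other tissues share. In a list of 8 markers of pharyngeal endoderm, thyroid and lung bud, the summed level was 18.3 and 17.6 FPKM. Its most abundant members, Shh, Foxa1 and Foxa2, had ratios of 0.757, 0.999 and 0.816, while Hhex, also of blood vessels, had 1.502. Its low members were named after their values were seen. Nkx2-1, a regulator of thyroid and lung, had 0.295 FPKM in the control against 0.853 in the mutant, from about 15 and 47 reads. Pax8, of thyroid, was listed at 0 in the control, with 0.129 FPKM and about 8 reads in the mutant. Tg, of the same list, had 0.0661 and 0.0879 FPKM, a ratio of 1.33 (0.594 to 3.36) from about 10 and 17 reads. The part of such cells in the Krt20 value was not tested.

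Keratin genes lie in 2 clusters, with 25 members on chromosome 11 and 22 on chromosome 15. The chromosome 11 cluster holds type I genes and runs over 1037 kb from Krt222 to Krt42, and the chromosome 15 cluster holds type II genes and Krt18 and runs over 682 kb from Krt80 to Krt18. Genes of at least 1 FPKM were not in 1 block. On chromosome 11, Krt15 and Krt19 stood 4.86 kb apart, between Krt13 and Krt9, which were listed at 0 in both libraries, and Krt14 followed Krt9 after 9.92 kb. On chromosome 15, Krt5 lay 21.1 kb from Krt71, which had 0.0218 and 0.0346 FPKM. Krt8 and Krt18 formed the end of this cluster, with 23.9 kb between them.

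**Figure D4:**
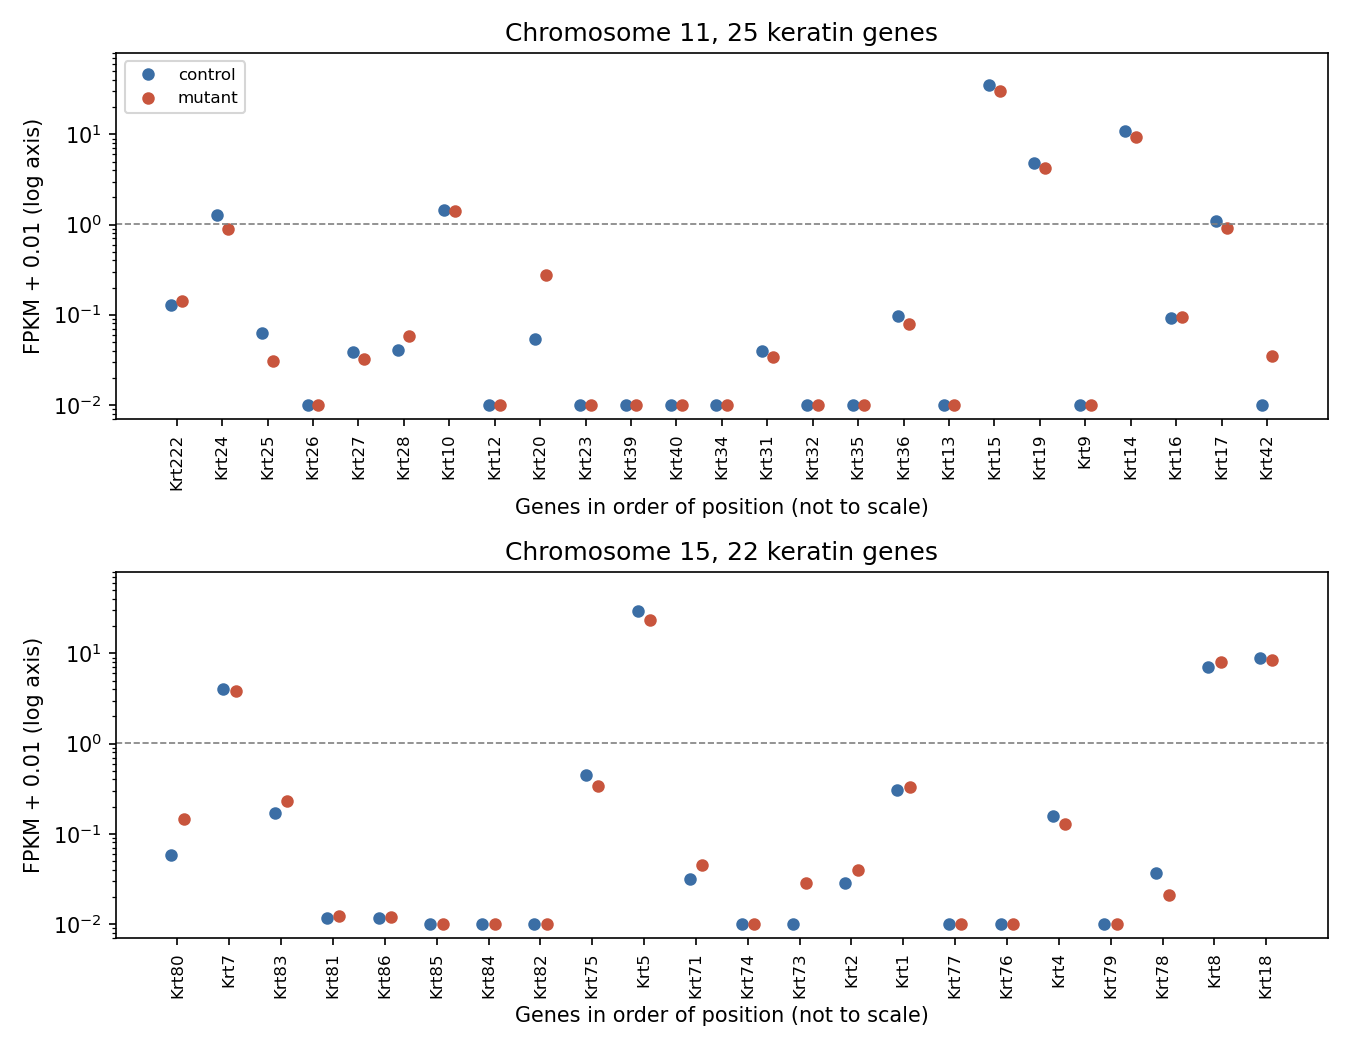
FPKM plus 0.01 on a log axis for the 25 keratin genes of chromosome 11 and the 22 of chromosome 15, in order of position and not to scale, in the control (blue) and mutant (red) library. Krt15, Krt19 and Krt14 stand above the 1 FPKM line (dashed) beside Krt13 and Krt9 at 0, and Krt8 and Krt18 close the chromosome 15 cluster.

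Promoter sequence was compared between keratins of at least 1 FPKM and those under 1 FPKM in both libraries, since the clusters place them side by side. Keratins under 1 FPKM are not all without RNA. RefSeq promoters on GRCm38.p6, a later build than the mm9 of the expression values, were found for 33 of the 47 members and for 7 of the 10 with at least 1 FPKM. Krt15, the most abundant keratin, had none, nor had Krt19 and Krt17. The 100 bases before the annotated start are shown for the basal Krt5 and Krt14, the simple pair Krt8 and Krt18, the late Krt10, and Krt20, with the letters TATAAA in capitals. These are on the minus strand of chromosome 15 at chr15:101712906-101713005 (Krt5) and chr15:102004343-102004442 (Krt8), on its plus strand at chr15:102028116-102028215 (Krt18), and on the minus strand of chromosome 11 at chr11:100206031-100206130 (Krt14), chr11:99389365-99389464 (Krt10) and chr11:99438154-99438253 (Krt20).
Krt5: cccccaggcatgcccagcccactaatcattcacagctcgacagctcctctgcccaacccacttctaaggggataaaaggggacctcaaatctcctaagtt
Krt14: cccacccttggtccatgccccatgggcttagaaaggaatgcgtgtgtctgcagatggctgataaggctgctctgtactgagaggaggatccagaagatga
Krt8: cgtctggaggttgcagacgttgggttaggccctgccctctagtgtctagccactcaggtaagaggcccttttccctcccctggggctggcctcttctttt
Krt18: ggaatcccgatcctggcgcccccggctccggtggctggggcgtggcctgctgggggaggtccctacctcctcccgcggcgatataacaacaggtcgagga
Krt10: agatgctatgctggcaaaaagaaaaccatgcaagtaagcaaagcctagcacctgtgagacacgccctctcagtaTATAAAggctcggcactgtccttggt
Krt20: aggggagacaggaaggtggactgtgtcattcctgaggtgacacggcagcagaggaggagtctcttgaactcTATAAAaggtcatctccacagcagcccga

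The motif TATAAA, the core of the TATA box, was searched on both strands of the 250 bases before the start. It was present in 1 of the 7 keratin genes with at least 1 FPKM, Krt10, where it began 26 bases before the start. Among the 26 keratin genes under 1 FPKM it was present in 14. Counting matches that began 35 to 20 bases before the start, these numbers were 1 of 7 and 11 of 26. Of 32536 promoters of the same length, 12.3% held the motif anywhere and 2.27% in that window. The letters were thus frequent among the keratins under 1 FPKM in these tongues, and absent in this exact form from the 250 bases before Krt5, Krt14, Krt7, Krt8, Krt18 and Krt24. The search did not count near forms, such as gataaaag before Krt5, gatataac before Krt18 and tatataag before Krt24. A missing TATAAA is therefore not a missing TATA box. A match is a description and not a binding site. Krt5 and Krt14 shared no match for TGANTCA (AP-1), GCCNNNGGC (AP-2) or GGGCGG (Sp1 and KLF factors), and 6.73%, 13.8% and 33.0% of all promoters held these.

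Genes that work with keratins were counted from other lists. Of all 12383 measured genes, 48.8% were lower in the mutant, and each count here and below stands beside that share. The lists are small, and no count was tested. Of 12 desmosome genes, whose products tie keratin filaments to cell contacts, 8 reached 1 FPKM in either library, with 6 lower and 2 higher and a median log2 ratio of -0.11, where all genes had 0.0035. Perp, Jup, Dsp and Dsg2 had ratios of 0.911, 1.02, 0.926 and 1.11. Dsc3, a desmosomal cadherin of the basal layer chosen after its value was known, had 2.73 FPKM in the control against 1.85 in the mutant, a ratio of 0.675 (0.563 to 0.807). Of 12 genes of the hemidesmosome and its anchorage, which hold basal keratins to the basement membrane, 11 were measured, with 9 lower and 2 higher and a median of -0.08. The most abundant, Cd151, Itga6, Plec and Itga3, had ratios of 0.953, 0.939, 0.928 and 0.863. Itgb4 and Col7a1, the beta-4 integrin and the anchoring fibril collagen, were named after their values were seen, with ratios of 0.747 (0.643 to 0.872) and 0.719 (0.645 to 0.803), and their loci overlap other models.

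Regulators of basal epithelium had a median of -0.07, with 7 lower and 3 higher of 10 measured, beside 48.8% lower of all genes. Of the 10, 4 had a counting interval of the ratio below 1 and 1 had one above 1. Among all genes these shares were 10.2% and 10.7%, again not matched for read number. Trp63, which maintains the basal layer and activates Krt5 and Krt14, had 11.5 FPKM in the control against 11.2 in the mutant. Its ratio of FPKM was 0.968. It is among the 4 because its interval, 0.832 to 0.994, comes from reads, about 938 and 1056 in libraries of unequal depth. Tfap2c, an AP-2 factor of surface epithelium that neural crest cells also use, had 8.01 and 5.52 FPKM, a ratio of 0.689 (0.597 to 0.795). Hes1 and Klf4 had ratios of 0.846 and 0.885. General epithelial genes had a median of -0.09, with 10 lower and 3 higher of 13, and their 4 most abundant, Spint2, Cdh1, Epcam and Cldn6, had ratios of 1.09, 0.888, 0.930 and 0.906. Oral and tongue patterning genes had 5 measured members, all lower, with a median of -0.15. Wnt6, a ligand of surface epithelium, had 5.66 and 3.59 FPKM. By contrast endothelial, skeletal muscle and neural crest mesenchyme lists had medians of 0.03, 0.07 and 0.04, with 5 of 6, 4 of 6 and 4 of 6 members higher. Of all 12383 measured genes, 6336 were higher. The part of a different amount of epithelium in the keratin ratios was not tested.

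Genes of keratin linkage and the cornified envelope were mostly low. Of 16 genes of keratin linkage and the cornified envelope, 14 had a row under the symbols searched and 3 reached 1 FPKM: Tchp, a keratin-binding protein, with 5.95 and 6.24 FPKM, the plakin Evpl with 1.86 and 1.47, and the plakin Ppl with 1.28 and 1.29. Lor, which encodes loricrin, had 0.784 and 0.742 FPKM, and Sprr1a, Sprr1b, Csta and Cnfn were listed at 0 in both. Among 15 other intermediate filament genes, 9 were measured, with a median of -0.02. Vim had 259.8 FPKM in the control against 249.7 in the mutant, Lmnb1, a nuclear lamin, 137 and 126, Nes, of progenitor cells, 33.6 and 35.1, and Des, of muscle, 32.3 and 31.8.

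**Figure D5:**
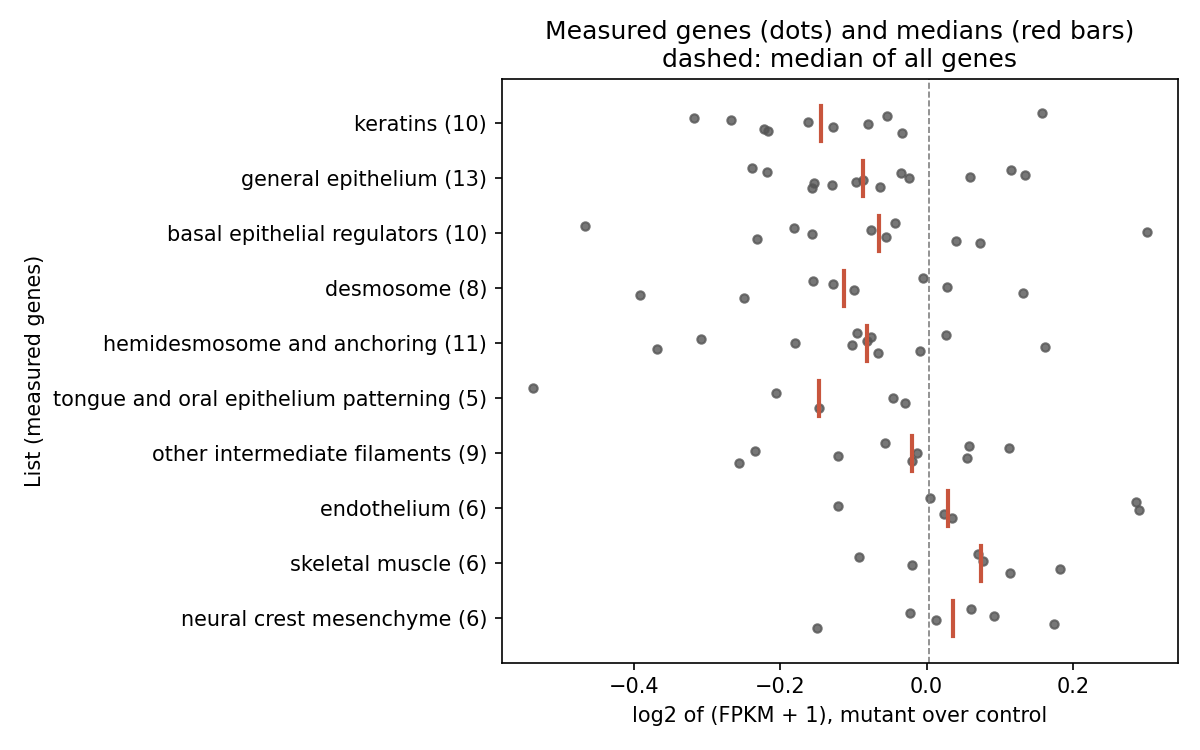
Log2 ratio of FPKM plus 1, mutant over control, of each measured gene (dots) in the keratins and 9 other lists, with the list median (red bar) and the median of all genes (dashed). The keratin median is -0.14 over 10 genes, of which 2 passed the filter through the control alone, and Krt8 is the dot to the right of the dashed line.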

How the data were processed

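Total RNA of pooled tongues was extracted and converted with NuGEN's Ovation RNA-Seq v2 chemistry, which amplifies cDNA, per the labels' protocols. Alignment used TopHat 1.4.1 and Bowtie 0.12.7 on mm9, per the submitters' processing notes. Per the file headers, the deposited values are FPKM per RefSeq transcript and, unscaled for depth, the coverage signal, in a Cufflinks layout (for its version, the read length and strandedness: not given in the sources used here). A further deposited column holds transcript length.

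FPKM was summed per symbol (each keratin had 1 row, with the status OK). A gene was measured at 1 FPKM or more in either library with all rows OK, and log2 ratios used a pseudocount of 1. Coverage times length was divided by the value of 1 read (47.6 bases in the control and 47.1 in the mutant, the median of single-row genes of at least 1000 nt between 30 and 70), which gave approximate reads: the middle 80% of such steps ran from 41.3 to 55.7 bases in the control. From these came exact Poisson intervals of levels and conditional (Clopper-Pearson) intervals of ratios, computed with scipy 1.17.1 and tested on simulated data. Pair quotients used the conditional odds ratio. Windows of 45 nt were matched exactly in GENCODE M21 transcripts. Starts in the files count from 0, and coordinates are given from 1. Older symbols were matched through RefSeq synonyms.

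Keratins of at least 1 FPKM were all named, with the 6 highest of the rest and up to 4 genes of each list by mean FPKM. Exceptions chosen after their values were seen were Krt13, Krt16, Krt36, Krt71, Krt84, Dsc3, Itgb4, Col7a1, Lor, Atoh1, Nkx2-1, Pax8, Tg and the genes listed at 0. The members and lists were chosen with earlier results of these data known. A gene that the naming rule covers is not reported here.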

Additional observations from a re-analysis of the deposited data

How the results depend on the processing

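All 10 keratin ratios kept their sign under the 5 alternatives tried for single genes (pseudocount of 0.1, TPM, the median of all genes set to 0, reads scaled to depth, highest row only), and moved by less than their counting interval. The signs were largely fixed in advance. A pseudocount cannot change a sign, and each keratin had 1 row. TPM and the median setting shift all genes alike, the latter by 0.0035 in log2 ratio. The kept signs are thus no evidence that the ratios would recur. For Osr1, class sums, counts and lists, 128 values moved by less than their counting error (counts: less than 1.5 times). The keratin median of -0.14 was -0.0086 with every member above 0, where genes near 0 enter, and -0.22 over members with a mean of at least 5 FPKM. With that filter of 5 FPKM the list medians were -0.19 for basal regulators, -0.036 for desmosomes, -0.045 for oral patterning, -0.17 for pharyngeal endoderm and 0.060 for neural crest mesenchyme, by fewer genes. The desmosome median was -0.029 with no filter, and that of neural crest mesenchyme was 0.054 with the highest row only and 0.060 without overlapping models. The 37 keratins under 1 FPKM in both libraries were 37 at 0.5 FPKM, 30 at 0.1 FPKM and 30 by a count of at most 3 reads. Mesothelium markers had 1 measured gene and gave no median. No paired analysis was possible because each genotype has 1 library, and no replicate could be left out. Library and genotype cannot be told apart.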
